A study of Mus musculus with 3143 samples.

Results

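The renin-angiotensin system genes measured here are Ren1 (renin), Agt (angiotensinogen), Ace (angiotensin-converting enzyme), Agtr1a and Agtr1b (the mouse AT1 receptors), Enpep (aminopeptidase A) and Atp6ap2 (the prorenin receptor). They were taken as the rows of the deposited count table that carry these symbols, 7 of 46517 gene names. All 7 had reads. The cells came from the glomerular fraction of kidneys of adult C57BL/6 mice. They had been freed with enzymes, sorted for a viability dye into plates and sequenced by Smart-seq2, a full-length method with 1 cell per well and no molecular identifiers. There were 1798 cells labelled IgAN on 6 plates and 1345 cells labelled Control on 4 plates. The labels give the same tissue, strain and adult age for both groups and do not say how IgA nephropathy, a glomerular disease with IgA deposits, was produced. No animal is named, so each group counts as 1 sample, no test was run, and the spread between plates stands in for a replicate error. Since a plate held 1 group only, effects of plate and of group cannot be told apart.

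Renin is released into the blood by juxtaglomerular cells, modified smooth muscle cells at the entry of the glomerulus. It cuts angiotensinogen, which circulates mainly from the liver and is also made in the proximal tubule, to angiotensin I. ACE turns angiotensin I into angiotensin II, which acts on AT1 receptors of vascular and mesangial cells, and aminopeptidase A removes the first amino acid of angiotensin II. Atp6ap2 binds renin and prorenin and is an accessory part of the vacuolar proton pump.

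Each of 5 members was highest in a cell class of its own (levels in CPM, reads per 1000000 reads of the summed cells). Ren1 was highest in smooth muscle or renin-lineage-like cells, Agt in proximal tubule-like cells, Ace in macrophage or dendritic-like cells, Agtr1a in mesangial-like cells and Enpep in podocyte-like cells. Among plates with at least 5 cells of a class, those of the next class overlapped those of the top class for Agtr1a and Agt. For Agtr1a the next was the smooth muscle or renin-lineage-like class, and for Agt the distal tubule or collecting duct-like class, with 1 plate at 127.9 CPM. For Ren1 only 3 plates of the top class were that large, and IgAN plates 318 and 322, with 2 such cells each, had 0 Ren1 reads. Ren1, Agtr1a and Ace were also among the 10 leading genes of the clusters in which they peaked, although they had not been used to form them. Atp6ap2 was found in every class. Agtr1b was nearly absent, with 38 reads in 5 cells. The groups were compared in 5 of 11 named classes. These leave out the smooth muscle or renin-lineage-like and podocyte-like classes, where Ren1 and Enpep peaked, and Agtr1b was too low to be measured in any of them. No member measured there differed between IgAN and Control by the size rule used for all genes. The rule asks for a log2 difference of at least 1 and for plates that do not overlap. Between 1.19 and 8.86% of measured genes met that rule, depending on the class.

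Classes were named from marker genes that exclude the 7 members, and the members were left out of the clustering, which gave 23 clusters and 11 named classes. The 10 podocyte markers summed to 24532 CPM in podocyte-like cells of IgAN and 26154 CPM in those of Control, and the 8 mesangial markers to 9170 CPM in mesangial-like cells of IgAN and 10081 CPM in those of Control. All 9 smooth muscle or renin-lineage markers had reads in their class, 13202 CPM in IgAN and 12094 CPM in Control. The mesangial-like class also carried the 10 endothelial markers, 5300.3 CPM in IgAN and 4647 CPM in Control, while those markers reached 16483 CPM (IgAN) and 16545 CPM (Control) in the endothelial-like class itself. The smooth muscle or renin-lineage-like class held 21 IgAN cells and 11 Control cells, so its values rest on few cells.

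**Figure D1:**
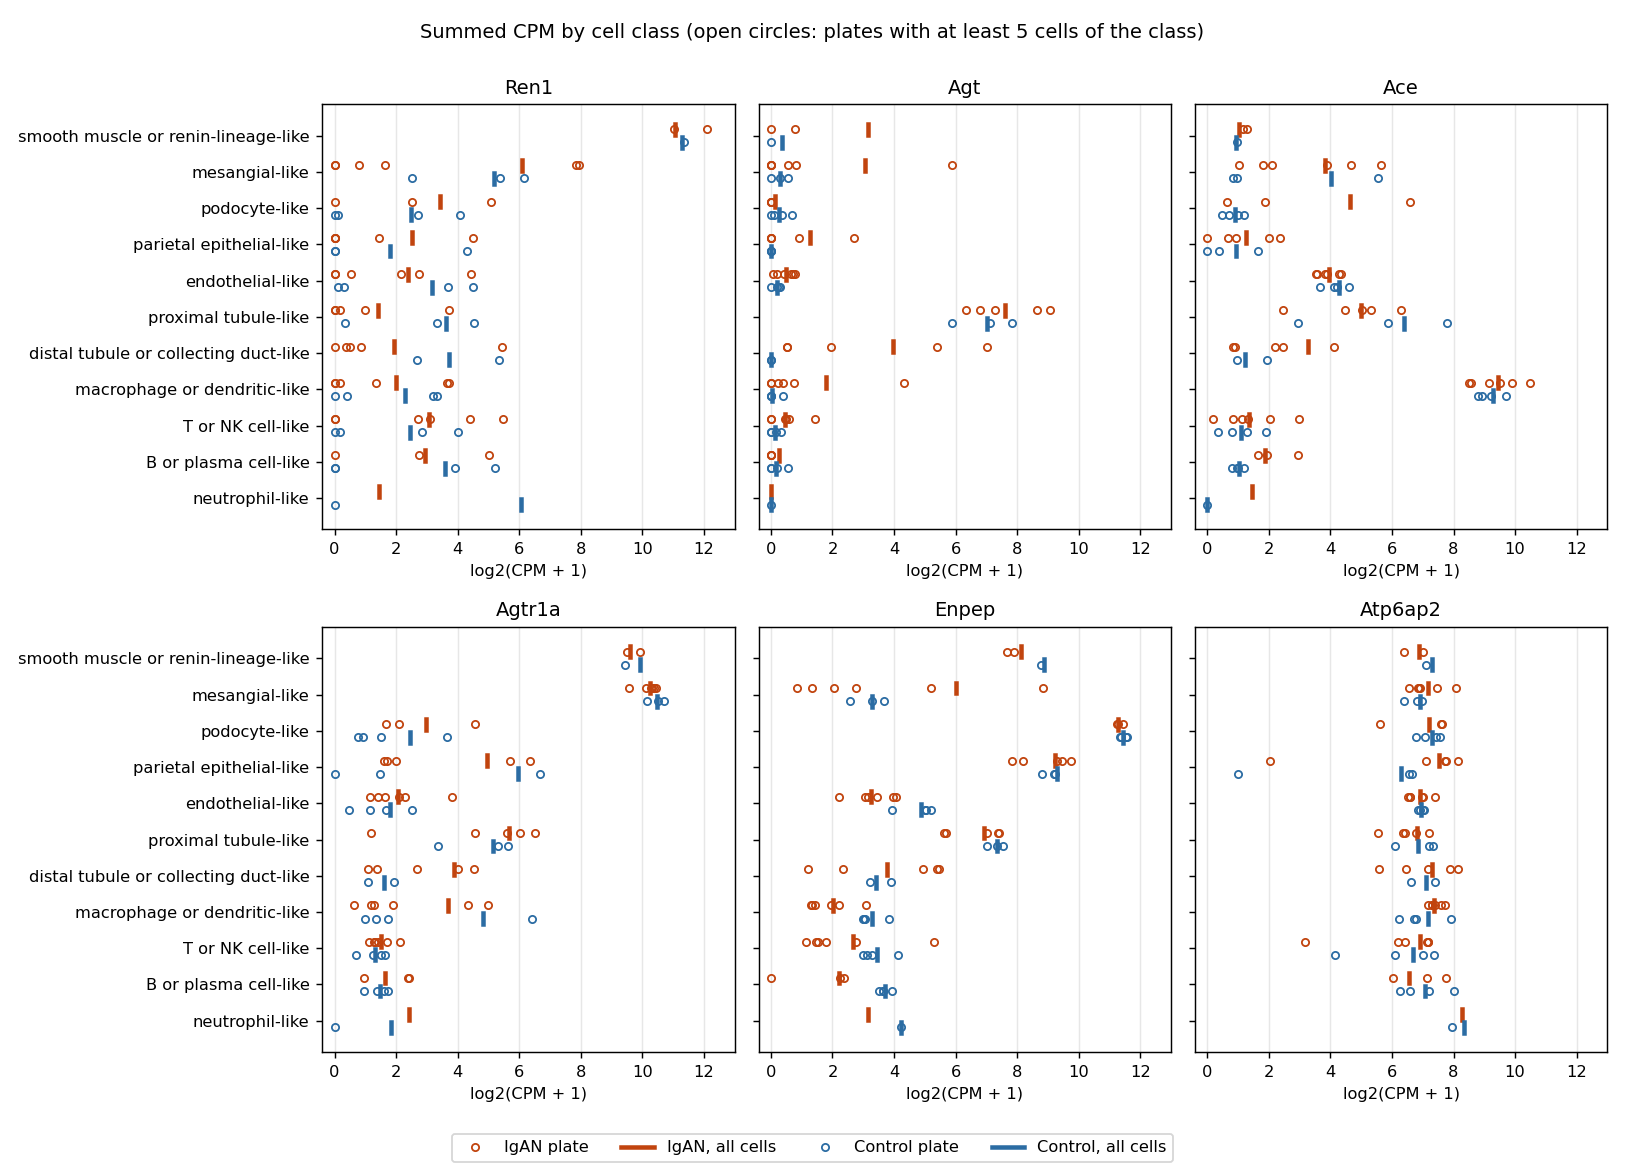
Summed level of 6 genes by cell class, as log2(CPM + 1). Open circles are plates with at least 5 cells of the class and thick marks are all cells of a group, IgAN above Control. Ren1, Agt, Ace, Agtr1a and Enpep each peak in a different class, while Atp6ap2 has reads in all of them.

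Promoters are shown first for the enzyme Ren1 and its substrate Agt, which start the cascade, and for Atp6ap2, which was found in all classes. The 120 bases before the RefSeq start (GRCm38.p6) are printed for these 3 genes, with the letters TATAAA in capitals: Ren1 at chr1:133350554-133350673 on the plus strand, Agt at chr8:124569707-124569826 on the minus strand and Atp6ap2 at chrX:12587639-12587758 on the plus strand.
Ren1: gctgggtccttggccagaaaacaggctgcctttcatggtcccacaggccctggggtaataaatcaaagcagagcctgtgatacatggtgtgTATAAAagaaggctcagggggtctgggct
Agt: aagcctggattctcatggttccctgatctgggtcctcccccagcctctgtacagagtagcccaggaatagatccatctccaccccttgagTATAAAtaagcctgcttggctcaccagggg
Atp6ap2: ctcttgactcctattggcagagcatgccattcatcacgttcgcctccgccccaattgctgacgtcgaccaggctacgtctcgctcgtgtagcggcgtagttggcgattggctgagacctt
The motif began 29 bases before the start of Ren1, 30 before that of Agt and 31 before that of Agtr1b. Ace, at 1 of its 2 starts, and Enpep, both also highest in 1 class, held it within the 300 bases around the start but not in the 120 bases before it on the gene's strand. Promoters of 6 of the 7 members were matched, and the one of Agtr1a was not. Of 32851 RefSeq promoter windows of 300 bases, 13.6% held TATAAA on either strand, and 1.99% held it between 40 and 16 bases before the start. A match describes letters and not a working site.

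Agtr1a and Agtr1b are near copies, which matters for how reads are shared between them. Their coding sequences, 1080 bases each in GENCODE vM21, were 90.8% identical, with 66 bases as the longest identical run. The first 90 coding bases are printed with the 8 differing bases in capitals, Agtr1a at chr13:30380954-30381043 on the plus strand and Agtr1b at chr3:20316351-20316440 on the minus strand (GRCm38).
Agtr1a: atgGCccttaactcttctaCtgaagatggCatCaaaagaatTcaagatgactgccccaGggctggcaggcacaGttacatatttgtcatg
Agtr1b: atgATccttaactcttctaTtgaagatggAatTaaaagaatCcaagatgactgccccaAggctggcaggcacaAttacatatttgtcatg

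Before the levels, 1 feature of the plates touches Ren1, Agt, Ace, Agtr1a and Enpep, the members checked for it. Reads of such a member in cells outside its main class followed the plate row and column of the cells rich in it. For Ren1, 18 wells held at least 1000 CPM. Among the other cells of plates with such a well, 332 of 466 (71.2%, exact 95% interval 66.9 to 75.3%) had a Ren1 read when they shared a row or column with one. Only 60 of 2094 cells that shared neither had one, which is 2.87% (2.19 to 3.67%). Median depth was 210440 reads in the first set and 229538 reads in the second. By plate, the share in the first set ran from 8.33% of 36 cells on Control plate 326 to 100% of 29 cells on Control plate 321. On plates 318 and 322, both IgAN and both without such a well, no cell of 301 and 264 had a Ren1 read, which allows shares of up to 0.997% and 1.14%.

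The richest wells showed it most plainly. On Control plate 317 the well with 2405 Ren1 reads stood in column 1, and all 12 other cells of that column had 36 to 84 Ren1 reads, with a median of 59.5. On IgAN plate 316 all 14 other cells in column 15 and all 21 in row I of the richest well had Ren1 reads, with medians of 19.5 and 16.0. B, plasma, T and NK cell-like cells, which are outside the top class of each of these genes, showed higher shares with a read beside rich wells for Ren1, Agt, Ace, Agtr1a and Enpep. With 0 wells of at least 1000 CPM Enpep in their row or column, 9.62% had an Enpep read, and with 3 or more of them 86.7%. For Agtr1a the same shares were 10.4% and 46.9%, and for Ace 10.5% and 32.4%. The cause of the row and column pattern was not tested.

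**Figure D2:**
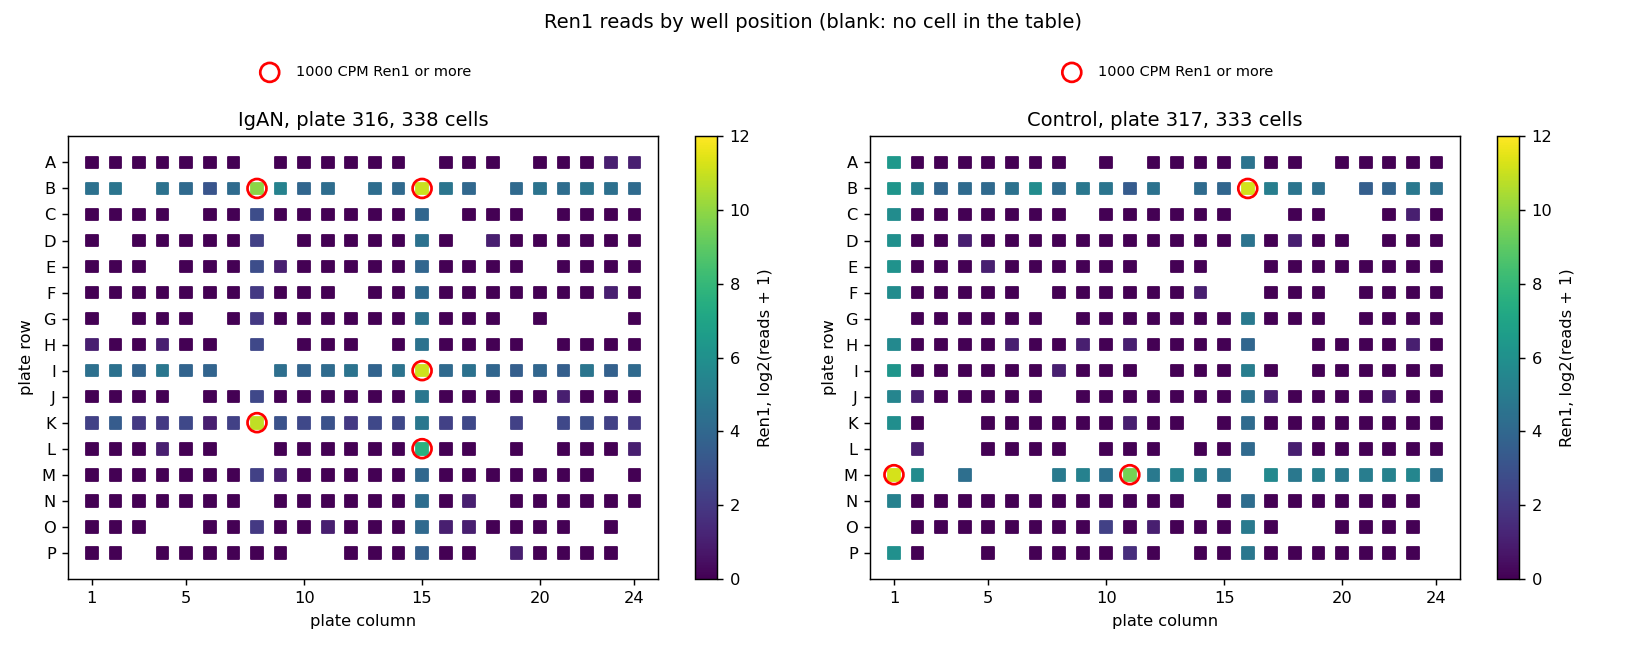
Ren1 reads per well, as log2(reads + 1), on IgAN plate 316 and Control plate 317, by plate row and column. Red circles mark wells of at least 1000 CPM Ren1, and the rows and columns that cross them stand out from the rest of each plate.

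Ren1 is the aspartyl protease that starts the cascade (chromosome 1, 133350510 to 133360325, plus strand, GRCm38, GENCODE vM21). Its level in smooth muscle or renin-lineage-like cells was 2119.9 CPM in IgAN (Poisson interval 2085 to 2155) and 2519 CPM in Control (2465 to 2573). By plate, IgAN values ran from 0 through a median of 2157 to 9623 CPM, and the Control plates gave 2568, 2629, 3211 and 320.4 CPM. The plates overlapped, and most held fewer than 5 of these cells, so the class was not compared by the size rule. The lowest Control plate held 1 cell, and the IgAN plates at 0 reads held 2 cells each.

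Ren1 was carried by few cells. At or above 1000 CPM stood 12 of the IgAN cells (0.667%, exact interval 0.345 to 1.16%) and 6 of the Control cells (0.446%, 0.164 to 0.968%). By plate there were 4, 1, 5, 0, 0 and 2 such cells in IgAN and 1, 3, 1 and 1 in Control. The intervals treat cells as independent and leave out this spread between plates. Together the 18 cells held 84.0% of all Ren1 reads. Of the 18, 14 fell in the smooth muscle or renin-lineage-like class, 3 in the mesangial-like class and 1 in the endothelial-like class. Within the renin-lineage-like class the gene was either very high or low: 14 of the 32 cells lay between 1587 and 11914 CPM, and the other 18 had a median of 0 and a highest value of 320.4 CPM.

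The 14 Ren1-rich cells and the other 18 cells of the class both carried Agtr1a and smooth muscle genes. Agtr1a stood at 816.8 CPM in the Ren1-rich cells and 854.2 CPM in the others, and Acta2, smooth muscle actin, at 4853 and 4440 CPM. Enpep stood at 454.3 CPM in the Ren1-rich cells and 273.1 CPM in the others. Akr1b7, an aldo-keto reductase known from renin cells, stood at 1687 and 902.7 CPM, and Rgs5, a pericyte regulator of G protein signalling, at 1526 and 2451 CPM. Acta2, Akr1b7 and Rgs5 are among the markers that named the class. The split uses Ren1 itself and mixes both groups, so these are descriptions with no test.

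The 3 Ren1-rich mesangial-like cells held 6928 and 4524 CPM Ren1 in IgAN and 2282 CPM in Control. They had no Akr1b7 read, but their 9 smooth muscle or renin-lineage markers summed to 4640.1 and 1969 CPM in IgAN and 1094 CPM in Control, against class medians of 211.9 CPM in IgAN and 157.4 CPM in Control. The first of them also carried 8846 CPM of proximal tubule markers and 1959.9 CPM Agt, against class medians of 24.9 and 18.0 CPM for those markers in IgAN and Control. As given above, the IgAN cells among them shared a plate row or column with a richer well. Over the whole mesangial-like class Ren1 was 67.0 CPM in IgAN and 34.9 CPM in Control, a log2 difference of 0.92. The 6 IgAN plates ran from 0 through a median of 1.43 to 247.2 CPM, and the 3 Control plates with at least 10 such cells gave 40.9, 4.66 and 70.0 CPM. The plates overlapped. Without wells that shared a row or column with a Ren1-rich well, and without those wells, 4 of 88 IgAN cells and 3 of 43 Control cells of the class had a Ren1 read, among them 1 Control cell with 153 reads.

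Other classes held Ren1 mostly in wells beside a Ren1-rich one. In endothelial-like cells, 14.0% of IgAN cells and 11.1% of Control cells had a Ren1 read. Among cells that shared no row or column with a Ren1-rich well, 1.32% of 833 IgAN cells and 2.28% of 526 Control cells did, and none of them held more than 1 read. In podocyte-like cells 35.9% in IgAN and 8.90% in Control had a read, and away from Ren1-rich wells 1 of 25 in IgAN and 4 of 130 in Control. In proximal tubule-like cells Ren1 had 1.64 CPM in IgAN and 11.3 CPM in Control, with overlapping plates and a log2 difference of -2.22. There, 2 of 132 IgAN cells and 3 of 74 Control cells away from such wells had a read.

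The deposited counts may also be limited at the top for Ren1. The 6 richest cells held 2104 to 2405 reads although their depths ran from 195890 to 447329 reads. The highest count equals 1.51 reads per base of the 1592-base transcript. Among 6931 genes with at least 500 reads in a cell, this placed Ren1 at rank 9, against a 99th percentile of 1.03 and a highest value of 1.71 reads per base. The handling of duplicate reads is not given in the sources used here, and differences between the richest Ren1 cells were not read from these counts.

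**Figure D3:**
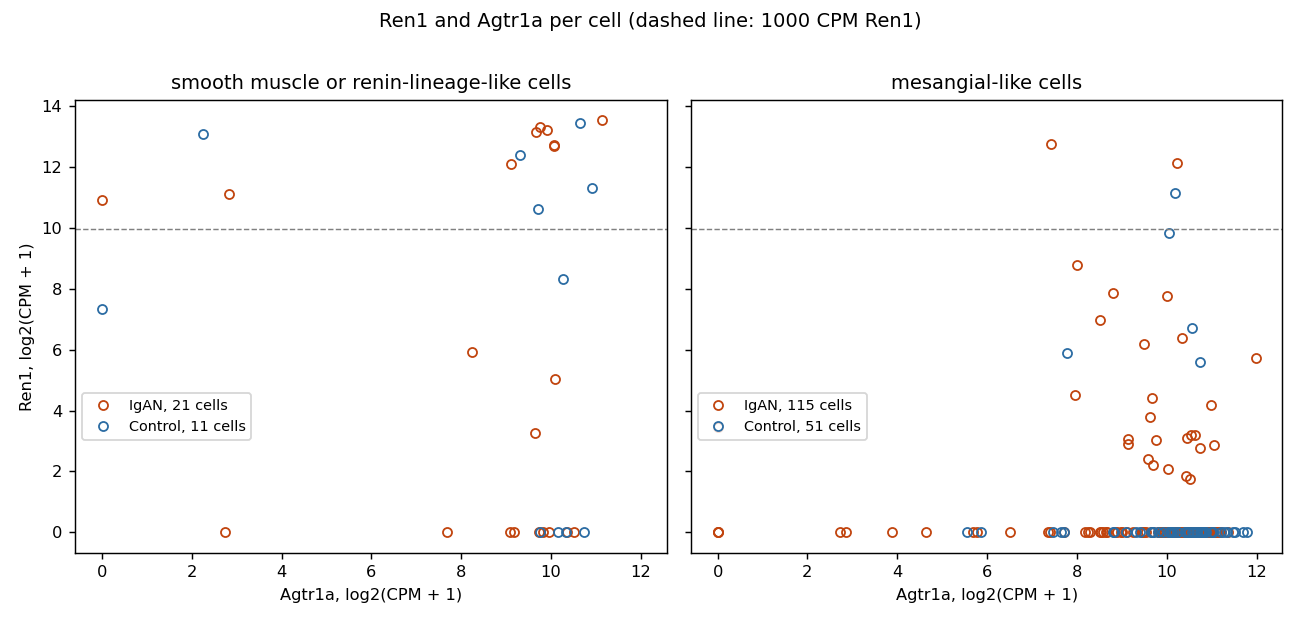
Ren1 against Agtr1a per cell, both as log2(CPM + 1), in smooth muscle or renin-lineage-like cells and mesangial-like cells of IgAN and Control. The dashed line marks 1000 CPM Ren1; 14 cells of the first class and 3 of the second lie above it, and cells of both classes are high in Agtr1a with or without Ren1.

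Agt, the only known substrate of renin (chromosome 8, 124556534 to 124569706, minus strand), was found almost entirely in proximal tubule-like cells. There it had 195.6 CPM in IgAN (191.0 to 200.2) and 127.8 CPM in Control (122.8 to 133.1). Plates with at least 10 such cells gave 155.0, 396.7, 80.7 and 110.9 CPM in IgAN and 139.2, 228.7 and 57.8 CPM in Control. They overlapped, and the log2 difference of 0.61 did not meet the size rule, which 8.86% of the 10397 measured genes met in this class. Outside it, Agt reached 100 CPM in 3 cells of the distal tubule or collecting duct-like class and in 1 cell each of the mesangial-, smooth muscle or renin-lineage- and macrophage or dendritic-like classes, all IgAN. Its summed level in endothelial-like cells was 0.419 CPM in IgAN and 0.140 CPM in Control.

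The proximal tubule-like class joined a pair of clusters that carried Agt differently. In the cluster led by Slc34a1, the phosphate transporter of the early proximal tubule, Agt had 195.8 CPM in 141 IgAN cells and 23.8 CPM in 72 Control cells. It reached 100 CPM in 40 of the IgAN cells (28.4%, exact interval 21.1 to 36.6%) and in 3 of the Control cells (4.17%, 0.868 to 11.7%). In the cluster whose leading genes include Slc22a7, an organic anion transporter, it had 182.6 CPM in 4 IgAN cells and 633.5 CPM in 13 Control cells. The second cluster thus held 4 of 145 IgAN cells and 13 of 85 Control cells of the class, and most cells of both groups were in the first.

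Without the Slc22a7 cluster, a setting chosen after seeing the data, the log2 difference of Agt was 2.99, yet the plates still overlapped. IgAN plates with at least 10 cells gave 158.0, 397.3, 80.7 and 110.9 CPM and Control plates 6.15, 94.2 and 0 CPM, and the highest Control plate lay above the lowest IgAN plate. RNA of another cell type moved with the group too. Endothelial markers, 10 genes, summed in the IgAN cells of the class to 4969 CPM, with plates from 227.4 to 9110 CPM. In the Control cells they summed to 201.7 CPM, with plates from 143.9 to 298.9 CPM. All 10 had reads in both groups. Within IgAN, plate 316 had the lowest median of these markers in the Slc34a1-led cluster among plates with at least 10 cells, 250.8 CPM, and its Agt level was 397.3 CPM. Whether endothelial RNA had a part in the difference was not tested.

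Ace, the carboxypeptidase that makes angiotensin II (chromosome 11, 105967945 to 105989964, plus strand), was highest in macrophage or dendritic-like cells. They had 693.8 CPM in IgAN (686.5 to 701.1) and 616.3 CPM in Control (607.3 to 625.4). IgAN plates ran from 363.5 through a median of 644.0 to 1422 CPM, and Control plates gave 591.2, 833.1, 488.1 and 438.8 CPM. The log2 difference was 0.17 and the plates overlapped; 1.19% of 9908 measured genes met the size rule in this class. Exons of Ace overlap those of Gm11651, and since the strand setting of the counting is not given in the sources used here, reads of the pair cannot be told apart.

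Clusters of the class differed widely in Ace. The cluster led by Treml4 and Cd300e, genes of non-classical monocytes, had Ace at 1129 CPM in 117 IgAN cells and 1341 CPM in 48 Control cells, with a read in 97.4% and 100% of them. The cluster led by Cd209a had 250.0 CPM in 52 IgAN cells and 175.4 CPM in 45 Control cells. The cluster led by C1q genes, known from tissue macrophages, had 40.8 CPM in 24 IgAN cells and 0.407 CPM, a single read, in 10 Control cells.

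Other sources of Ace were smaller. In proximal tubule-like cells it had 31.0 CPM in IgAN and 83.7 CPM in Control, with overlapping plates of 4.46 to 77.7 CPM and 6.64 to 220.5 CPM. Again the Slc22a7 cluster carried it: 441.7 CPM in its 4 IgAN cells and 463.8 CPM in its 13 Control cells, with reads in all 17, against 24.3 CPM in IgAN and 5.47 CPM in Control in the Slc34a1 cluster. In endothelial-like cells, where ACE is best known as a surface enzyme of lung capillaries, the level was 14.5 CPM in IgAN and 18.3 CPM in Control. At least 100 CPM was reached by 44 of 996 IgAN cells (4.42%) and 35 of 615 Control cells (5.69%). The endothelial-like cluster led by Fbln5, an elastic fibre gene, had 19.2 CPM in IgAN and 39.1 CPM in Control. In mesangial-like cells Ace had 13.3 CPM in IgAN and 15.3 CPM in Control. Plates ran from 1.06 to 49.0 CPM in IgAN and from 0.793 to 45.2 CPM in Control; without Control plate 317 the Control level was 0.794 CPM and the log2 difference 2.99, with no overlap. That leaves 2 Control plates of at least 10 cells, fewer than the 3 asked for in a comparison.

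Enpep, the membrane aminopeptidase that shortens angiotensin II (chromosome 3, 129269175 to 129332720, minus strand), was the podocyte member. Podocyte-like cells had 2464 CPM in IgAN (2435 to 2494) and 2792 CPM in Control (2777 to 2808), with at least 100 CPM in 36 of 39 IgAN cells and 144 of 146 Control cells. IgAN plates ran from 852.9 through a median of 2449 to 3094 CPM, and Control plates gave 2567, 3014, 2647 and 2947 CPM. The plates overlapped. The lowest IgAN plate, 325, held 3 podocyte-like cells, and only 2 IgAN plates held at least 10, so the class was not compared by the size rule.

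The next levels came in parietal epithelial-like cells, which line the capsule around the glomerulus, with 600.3 CPM in IgAN and 624.9 CPM in Control. Smooth muscle or renin-lineage-like cells had 279.0 CPM in IgAN and 467.7 CPM in Control. There, single plates ran from 0 through a median of 219.8 to 1001 CPM in IgAN and from 422.0 through a median of 441.6 to 596.3 CPM in Control. They overlapped each other and the plates of the parietal epithelial-like class. Proximal tubule-like cells had 121.5 CPM in IgAN and 162.5 CPM in Control.

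In mesangial-like cells Enpep had 64.3 CPM in IgAN and 8.70 CPM in Control, a log2 difference of 2.75, but 1 plate set the IgAN value. Plate 325 had 461.4 CPM, the other IgAN plates 0.803 to 35.8 CPM and the 3 Control plates 5.00, 11.7 and 8.72 CPM. The 5 richest cells, all of plate 325, carried 8645 to 27130 CPM of the 10 podocyte markers, against class medians of 257.3 CPM in IgAN and 411.0 CPM in Control. Without plate 325 the log2 difference was 0.02.

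In endothelial-like cells all Control plates but 1 lay above the IgAN plates. Enpep had 8.60 CPM in IgAN (8.25 to 8.96) and 28.6 CPM in Control (27.8 to 29.4), a log2 difference of -1.62. IgAN plates ran from 3.68 through a median of 8.95 to 15.6 CPM and Control plates gave 14.3, 31.7, 31.2 and 36.1 CPM, so the lowest Control plate, 314, overlapped and the size rule was not met. Without that plate the Control level was 33.6 CPM, the log2 difference -1.85 and the rule was met. The share of cells with a read did not overlap, with 18.6 to 44.9% on IgAN plates and 71.9 to 89.4% on Control plates. How many of all genes had shares that part in this way was not computed, so this gap has no background beside it. By the size rule, which uses levels and not shares, 1.49% of 9681 measured genes were called in this class.

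The groups fell mostly into different clusters of the endothelial-like class, and the part of this in its differences was not tested. The cluster led by Fgf1 held 37 of 996 IgAN cells and 415 of 615 Control cells. The clusters led by Btnl9, by Gm20659 and by Cxcl1 held 339, 329 and 177 IgAN cells and 69, 11 and 1 Control cells, in that order. Enpep had 15.4 CPM in IgAN and 35.6 CPM in Control within the Fgf1 cluster. Within the Btnl9 cluster it had 9.21 CPM in IgAN and 25.7 CPM in Control, and within the Fbln5 cluster 2.80 CPM in IgAN and 8.13 CPM in Control. In the Gm20659 cluster it had 7.28 CPM in IgAN and 4.78 CPM in its 11 Control cells.

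The Control plates, with the higher shares, also held more podocyte-like cells. These made up 0.683 to 4.08% of the cells on IgAN plates and 8.11 to 13.2% on Control plates. Within IgAN the orders differed: plate 313 had the most podocyte-like cells, 4.08%, and an Enpep share of 33.6%, while plate 318 had 1.99% and the highest share, 44.9%. B, plasma, T and NK cell-like cells showed the same gap, with an Enpep read in 15.8 to 59.1% of them on IgAN plates and 70.4 to 91.8% on Control plates. Among endothelial-like cells with 1 Enpep-rich well in their row or column, 49.4% of 308 IgAN cells (exact interval 43.6 to 55.1%) and 41.7% of 48 Control cells (27.6 to 56.8%) had a read. With 0 such wells the shares were 10.9% of 470 IgAN cells and 11.1% of 9 Control cells, and with 2 wells 57.3% of 143 and 63.4% of 123. With 3 or more the shares were 61.3% of 75 IgAN cells (49.4 to 72.4%) and 87.3% of 434 Control cells (83.8 to 90.3%). That last set has no upper limit, so the number of rich wells can differ between the groups within it. At or above 100 CPM Enpep stood in 19 of 996 IgAN and 24 of 615 Control endothelial-like cells. Podocyte markers, 10 genes, summed in these cells to between 387.9 and 751.3 CPM on IgAN plates and between 626.2 and 817.1 CPM on Control plates, with reads of all 10 in both groups. The part of the podocyte-like cells in the gap was not tested.

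**Figure D4:**
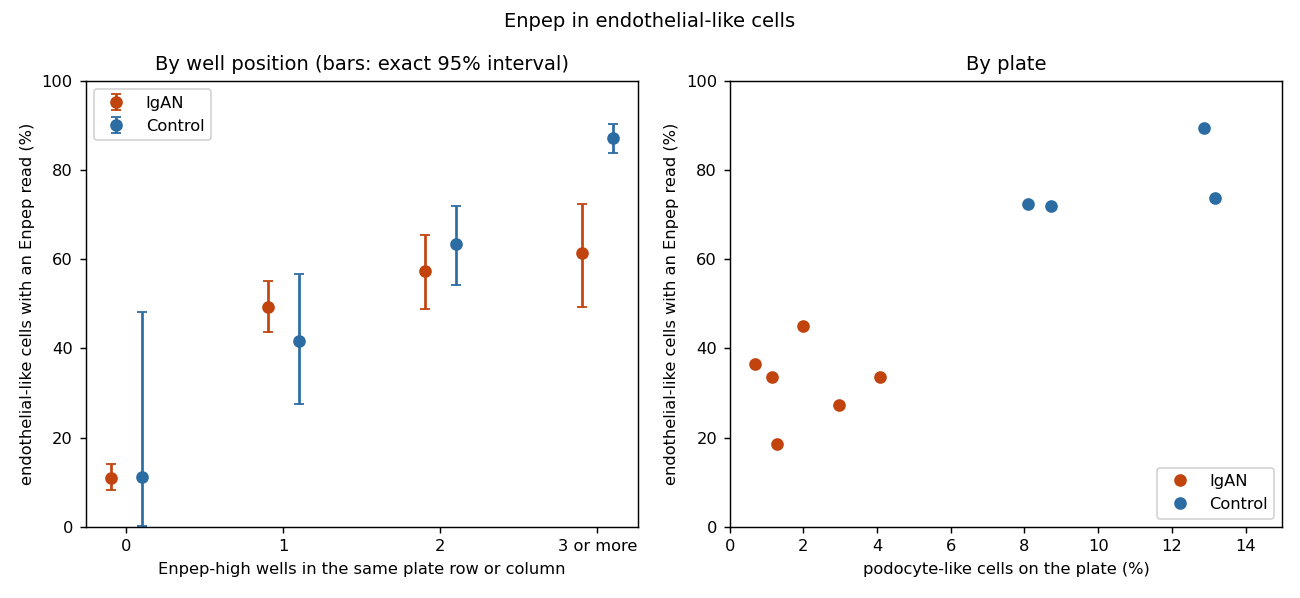
Share of endothelial-like cells with an Enpep read, left by the number of wells of at least 1000 CPM Enpep in the same plate row or column (points are shares, bars exact 95% intervals), right by plate against the share of podocyte-like cells on it. IgAN plates lie between 18.6 and 44.9% and Control plates between 71.9 and 89.4%.

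Agtr1a, the main AT1 receptor of the mouse kidney (chromosome 13, 30336441 to 30382867, plus strand), was found in nearly every mesangial-like cell. The class had 1203 CPM in IgAN (1190 to 1217) and 1418 CPM in Control (1398 to 1439), with at least 100 CPM in 104 of 115 IgAN cells and 49 of 51 Control cells. IgAN plates ran from 761.1 through a median of 1267 to 1377 CPM. Control plates with at least 10 cells gave 1672, 1145 and 1444 CPM. The groups overlapped, with a log2 difference of -0.24. Of the 10160 genes measured in this class, 2.75% met the size rule and none of the 5 measured members did.

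Smooth muscle or renin-lineage-like cells came next with 773.2 CPM in IgAN and 970.3 CPM in Control. The plates with at least 5 such cells lay at 684.2 to 967.8 CPM and overlapped those of the mesangial-like class. All other classes were far lower. Proximal tubule-like cells had 49.4 CPM in IgAN and 34.2 CPM in Control, and parietal epithelial-like cells 29.9 CPM in IgAN and 61.7 CPM in Control, with overlapping plates. Among macrophage or dendritic-like cells, the value of 27.3 CPM in Control, against 11.9 CPM in IgAN, came mostly from 1 cell of plate 314 with 743 of the 791 reads. That cell and the 4 next richest of the class had reads of all 8 mesangial markers. Without plate 314 the log2 difference there was 2.31, in place of -1.13, and the plates still overlapped. No T or NK cell-like cell reached 100 CPM.

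Agtr1b (chromosome 3, 20314473 to 20367177, minus strand) had 34 of its 38 reads in 1 smooth muscle or renin-lineage-like cell of IgAN plate 313, which also held 170 Agtr1a reads. The other 4 reads fell in single cells, 3 mesangial-like and 1 T or NK cell-like. All 5 cells were IgAN. In Control, 0 of 1345 cells had a read. How the counting treated reads that match both receptor genes is not given in the sources used here, so Agtr1b and Agtr1a values are uncertain to that extent.

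Atp6ap2 (chromosome X, 12587801 to 12617049, plus strand) was the broad member. Over both groups its level ran from 108.7 CPM in T or NK cell-like cells to 317.7 CPM in the 20 neutrophil-like cells, and the share of cells with a read from 49.8 to 74.7%. Neighbouring classes in this order overlapped by plate, apart from the step between neutrophil-like cells, with 1 plate of at least 5 cells, and the next class. Endothelial-like cells had 119.6 CPM in IgAN and 121.8 CPM in Control, a log2 difference of -0.03. IgAN plates ran from 91.5 through a median of 109.9 to 167.3 CPM, and Control plates gave 131.3, 115.2, 127.2 and 118.4 CPM, inside the IgAN range. In the other compared classes its log2 difference was 0.27 in mesangial-like, -0.03 in proximal tubule-like, 0.20 in macrophage or dendritic-like and 0.22 in T or NK cell-like cells, with overlapping plates in each.

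Scaled per kilobase of exons, levels can be set between genes. Ren1 stood at 1361 CPM per kilobase in smooth muscle or renin-lineage-like cells of both groups, Agtr1a at 301.4 and Enpep at 72.8 CPM per kilobase in the same cells. The top classes gave 579.7 CPM per kilobase for Enpep in podocyte-like, 457.4 for Agtr1a in mesangial-like and 125.8 for Ace in macrophage or dendritic-like cells. Atp6ap2 followed with 121.3 in the 20 neutrophil-like cells and Agt with 91.2 in proximal tubule-like cells. Agtr1b had 1.60 in smooth muscle or renin-lineage-like cells.

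**Figure D5:**
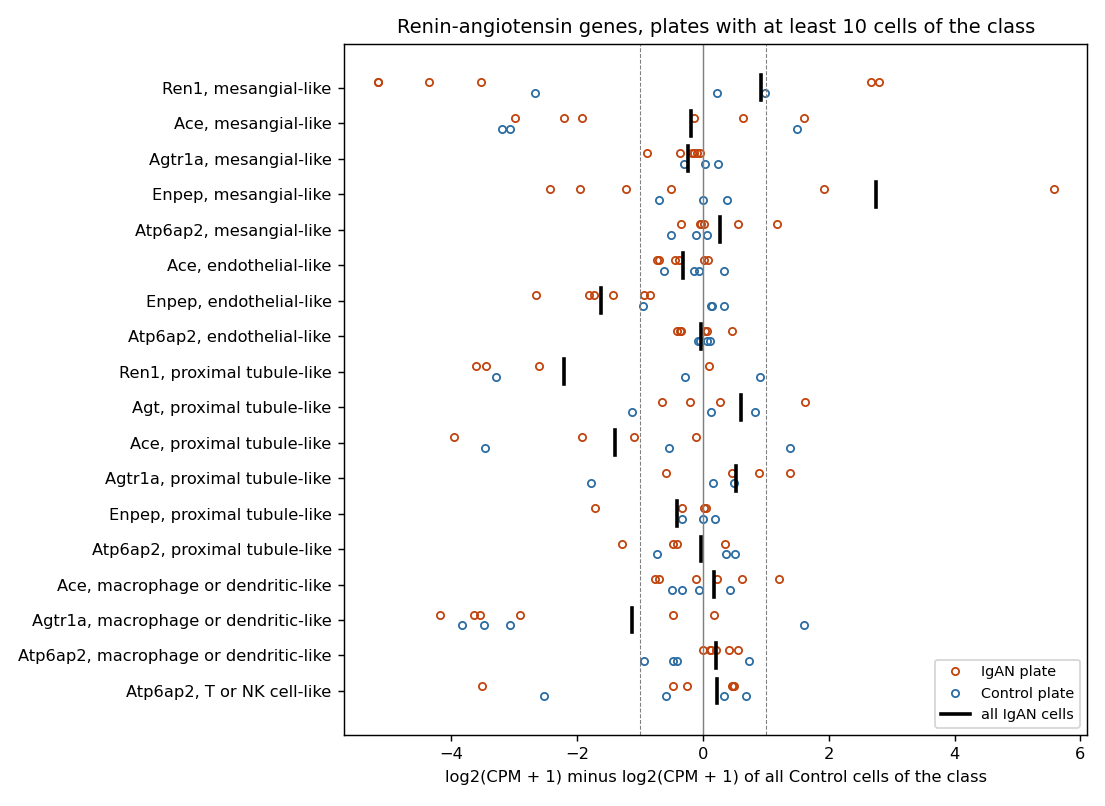
Each gene measured in a compared class, as log2(CPM + 1) minus that of all Control cells of the class. Circles are plates with at least 10 cells, IgAN above Control, and black bars are all IgAN cells; dashed lines mark a difference of 1. Circles of the groups overlap in each of the 18 rows.

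Across the 5 compared classes, 5 members were measured in mesangial-like, 3 in endothelial-like, 6 in proximal tubule-like, 3 in macrophage or dendritic-like and 1 in T or NK cell-like cells. None of these 18 met the size rule or had plates that stood apart. The log2 differences ran from -2.22 for Ren1 in proximal tubule-like cells to 2.75 for Enpep in mesangial-like cells. In T or NK cell-like cells 1.72% of 9440 measured genes met it; there the cluster led by Cd3e held 32 IgAN and 83 Control cells, and the cluster led by Gzma 61 IgAN and 45 Control cells. With so few members, a count of 0 is near what these shares give for any genes, and it does not show that the groups were alike.

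Other genes of the pathway were looked at in the same way. Of 19 further pathway genes, 10 were measured in mesangial-like cells and none met the rule, with a median log2 difference of 0.02 beside 0.02 over all genes. In endothelial-like cells 1 of 9 measured was higher and none lower, with a median of -0.12 beside 0.01 over all genes. That gene was Prcp, a carboxypeptidase that can make angiotensin-(1-7) from angiotensin II, with 53.1 CPM in IgAN and 16.8 CPM in Control, a log2 difference of 1.60. Its plates ran from 42.9 to 64.5 CPM in IgAN and from 6.93 to 25.1 CPM in Control. The groups fell mostly into different endothelial-like clusters, as given above, and values of Prcp and of the other list genes within single clusters were not computed. In proximal tubule-like cells, where 8.86% of all measured genes met the rule, 1 of 13 was lower, Anpep, which trims angiotensin III, with 25.5 CPM in IgAN and 83.7 CPM in Control; the list's median was -0.58 beside 0.32 over all genes. In macrophage or dendritic-like cells 1 of 11 was lower, Nln, the peptidase neurolysin, with 14.8 CPM in IgAN and 42.7 CPM in Control, and the median was -0.30 beside 0.06. In T or NK cell-like cells none of 10 met the rule. The most abundant of the list in mesangial-like cells were the cathepsins Ctsd, 387.8 CPM in IgAN and 441.1 CPM in Control, and Ctsa, 327.5 CPM in IgAN and 410.8 CPM in Control, followed by Dpp3, 96.3 CPM in IgAN and 81.5 CPM in Control.

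Some further pathway genes are named after their values were seen. Mme, neprilysin, had 428.8 CPM in podocyte-like cells of IgAN and 348.0 CPM in those of Control. Cma1, a chymase, had 87.3 CPM in T or NK cell-like cells of IgAN and 43.5 CPM in those of Control. Agtr2, the other angiotensin II receptor, had 0 reads in every class of both groups.

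Of 15 genes that control renin release, 6 were measured in endothelial-like cells, where 2 were lower and none higher, beside 1.49% of all measured genes called in either direction. Gja5 encodes connexin 40, the gap junction protein through which endothelial and renin cells are coupled, and had 36.8 CPM in IgAN and 207.4 CPM in Control. Its IgAN plates ran from 7.08 to 57.9 CPM and its Control plates from 166.5 to 280.8 CPM, a log2 difference of -2.46. Pde3a, a phosphodiesterase that breaks down cyclic AMP, had 12.6 CPM in IgAN and 59.9 CPM in Control. The list's median was -0.61 beside 0.01 over all genes. As given above, the groups fell mostly into different endothelial-like clusters, and levels of Gja5 and Pde3a within single clusters were not computed.

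In mesangial-like cells 1 of 10 measured renin-release genes was higher and 1 lower, beside 2.75% of all measured genes called. Ptgs2, the inducible cyclooxygenase, had 138.0 CPM in IgAN, with plates from 3.48 to 360.4 CPM, and 0.0763 CPM in Control, which is a single read. Ptger4, a prostaglandin E2 receptor, had 126.7 CPM in IgAN and 313.0 CPM in Control, a log2 difference of -1.30. The median of the list was -0.25 beside 0.02 over all genes. None met the rule among 6 measured in proximal tubule-like cells, where all 6 differences were positive and the median was 3.41 beside 0.32 over all genes. None of 7 met it in macrophage or dendritic-like cells, with a median of 1.15 beside 0.06, and none of 3 in T or NK cell-like cells, with 0.35 beside 0.05. The endothelial markers in proximal tubule-like cells, 4969 CPM in IgAN and 201.7 CPM in Control, move with the first of these medians, and their part in it was not tested.

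Of 12 genes of AT1 receptor signalling and trafficking, Arap1, known to bind the receptor and bring it to the surface, was lower in endothelial-like cells, with 46.5 CPM in IgAN and 97.3 CPM in Control. It was 1 of 11 measured there, with a list median of 0.19, and its levels within single endothelial-like clusters were not computed. None was called among 10 in mesangial-like (median -0.19), 10 in proximal tubule-like (0.72), 11 in macrophage or dendritic-like (-0.09) and 7 in T or NK cell-like cells (0.25). Of 14 V-ATPase subunits, the partners of Atp6ap2, none was called in any of the 5 classes, with medians between -0.11 and 0.07 on the log2 scale.

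The genes whose levels ran most like each member were listed over 22 profiles, 11 classes in each of the groups, from 13950 genes. Profiles of the groups share their classes, so the correlation describes the class pattern. For Ren1 it was highest with Rgs5 (Pearson r 0.92), followed by Kcnmb1, Ndst3, Slc38a11 and Rergl. For Agtr1a it was highest with Gucy1a3 (0.97), followed by Cd248, Hcar1 and P3h3. For Enpep it was Tcf21 (0.93), then Palld, C1qtnf7, Ackr3 and Col4a5. For Agt it was Spink1 (0.95), then Mep1a, Gc, Lrrc19 and Cyp2j5, and for Ace Shtn1 (0.85), then Hpgd, C3ar1, Slco2b1 and Apoc2. For Atp6ap2 it was Slc7a11 (0.88), then Naa30, Ifitm1, Il1rn and Cxcr2. Rgs5 and Cxcr2 are class markers.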

How the data were processed

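Single cells were measured by Smart-seq2, a method in which each cell is 1 library in 1 well. The deposited values are counts, whole reads per gene name with no normalization. The tools named, per the submitters' processing notes, are featureCounts, Subread 1.4.6-p5, TopHat2 2.1.1 and SAMtools 0.1.18, with the build GRCm38 (mm10). Of the annotation, the strand setting and the treatment of duplicate and shared reads, none is given in the sources used here.

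All 3143 cells passed 10000 reads and 500 genes; depth was 50365 to 1135415 reads per cell, with a median of 231222 in IgAN and 241543 in Control. Genes found in at least 5 cells, without the 7 members, were scaled to 100000 reads, reduced to 2000 variable genes and 30 principal components, and clustered (Leiden, 15 neighbours, resolution 1). A cluster took the class with the highest markers and is called by that name with "like"; 46 cells stayed unnamed. Doublets were not called. Cells flagged for markers of a second class were left out as an alternative, but the flag did not take all cells with such markers. In the proximal tubule-like class it took 6 of 145 IgAN cells, although endothelial markers there summed to 4969 CPM in IgAN. On IgAN plate 325, the 43 cells of the Slc34a1-led cluster had a median of 9746 CPM of these markers. The alternative therefore does not show how results of that class hold without mixed cells.

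Reads were summed per class and group and scaled to CPM. The log2 difference is IgAN minus Control after adding 1 CPM. A gene was measured at 10 CPM or more and in at least 10% of cells of 1 group. The size rule needs a log2 difference of at least 1 and groups whose plates, each with at least 10 cells, do not overlap. Classes needed 3 such plates per group. No test between the groups was run. The rule was tried on simulated data.

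Intervals are exact at 95%, Poisson for levels and Clopper-Pearson for shares, and cover counting error only, since copies of a molecule cannot be told from separate molecules. A count of 0 allows up to 3 counts. Named list genes are those that met the size rule and the 3 most abundant, of which not all are printed. Neighbours are the 5 highest Pearson r. Some genes are not reported here. The members, markers and lists were chosen with earlier results of these data known. Promoters are from RefSeq, positions and coding sequences from GENCODE vM21. Python 3.11.15, numpy 2.4.6, pandas 2.3.3, scipy 1.17.1, scanpy 1.11.5 and leidenalg 0.10.2 were used.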

Additional observations from a re-analysis of the deposited data

Results flagged for a closer look

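In 3 of 27 sets of plates checked, 1 plate stood far from the others of its group; chance gives about 1 in 20. Enpep in mesangial-like cells was 461.4 CPM on IgAN plate 325, and the next highest of the 6 IgAN plates had 35.8 CPM; the podocyte markers of the cells that carry it are given above. Agtr1a in macrophage or dendritic-like cells was 84.6 CPM on Control plate 314, and the next of the 4 Control plates had 2.37 CPM; 1 cell with all 8 mesangial markers carried it. Ren1 in proximal tubule-like cells was 12.1 CPM on IgAN plate 316, which holds 5 Ren1-rich wells, and the next of 4 IgAN plates had 1.00 CPM.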

How the results depend on the processing

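No paired analysis was possible because the labels name no replicate animals, each group counts as 1 sample and no test was run. Of 296 alternatives over 24 summary results, 266 stayed within the limits set for a move, and of 343 over 18 differences of single genes, 336 did. The limit was a standard deviation between plates for differences, levels and shares, and a fixed fold for counts of genes. Where plates differed widely, a large shift still counted as no move. Averaging the CPM of single cells made Enpep meet the size rule, 1 member each in endothelial-like cells (8.23 CPM in IgAN, 27.2 CPM in Control) and macrophage or dendritic-like cells (3.47 CPM in IgAN, 10.1 CPM in Control). In the second class Enpep reached the limit of 10 CPM in Control only. With summed reads, 1.49% and 1.19% of all measured genes met the rule in these classes, and the shares with averaged CPM are not given here. With no filter on low values, 246 genes met the rule in endothelial-like, 199 in macrophage or dendritic-like and 250.0 in T or NK cell-like cells; with a log2 limit of 0.58, 261 in endothelial-like; with at least 100000 reads and 1000 genes per cell, 315 in T or NK cell-like. Thinned to 50000 reads, 56.25% of smooth muscle or renin-lineage-like cells had a Ren1 read, beside 59.4%; another random draw gave 12 of 21 IgAN and 7 of 11 Control cells, as without thinning.

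Leaving out each plate in turn, 0 to 1 members met the rule in mesangial-like cells (Ace without plate 317) and in endothelial-like cells (Enpep without plate 314), and 0 in the other classes. All genes meeting it were 293 to 720.0 in mesangial-like (649, 710.0 and 720.0 without a Control plate of at least 10 cells), 165 to 227 in endothelial-like, 921 to 1976 in proximal tubule-like, 147 to 282 in macrophage or dendritic-like and 226 to 286 in T or NK cell-like cells; with fewer plates to lie apart the rule is easier to meet, and without a Control plate the mesangial-like and proximal tubule-like classes can keep 2 such plates, fewer than the 3 asked for. Levels in the top class were 1902 to 2629.5 CPM for Ren1, 2662 to 2783 for Enpep, 1227 to 1320.3 for Agtr1a, 609.2 to 693.9 for Ace, 150.3 to 195.0 for Agt, 249.0 to 350.03 for Atp6ap2 and 0 to 4.34 for Agtr1b.

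Settings chosen after seeing the data were Ren1 without shared wells and the proximal tubule-like class without the Slc22a7-led cluster, where Ace had a log2 difference of 1.97 in place of -1.40. At resolution 2, Agtr1a in macrophage or dendritic-like cells had 1.56 in place of -1.13; without plate 314 Atp6ap2 there had 0.71. Causes of these moves were not tested. The groups could not be compared in mesangial-like cells without cells that carry markers of another class, since 110 of 115 IgAN and 48 of 51 Control cells carried such markers. Only the level of Agtr1a was computed in the few cells that remained.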
